A study of Mus musculus with 6 samples.

Results

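The heat shock chaperones were examined as 10 genes chosen by name: the inducible HSP70 copies *Hspa1a* and *Hspa1b*, the constitutive HSP70 *Hspa8*, the HSP70 partners *Hsph1* and *Dnajb1*, the HSP90 genes *Hsp90aa1* and *Hsp90ab1*, the small heat shock protein *Hspb1*, and the mitochondrial chaperonin pair *Hspd1* and *Hspe1*. All 10 were found among the 56691 genes of the count table. The RNA came from liver of pregnant mice fed a high-fructose diet (HFrD) during pregnancy, 3 dams per group. KPF dams were h*Chrebp* KO mice, in which a floxed exon of *Mlxipl*, the gene of the carbohydrate-sensing transcription factor ChREBP, is removed by a Cre under the albumin promoter and so in hepatocytes. WPF dams, labelled WT, were described in the study's methods as *Chrebp* flox/flox mice without Cre, so both groups carried the floxed alleles, both were pregnant, both had been mated with *Chrebp* flox/flox males, and both ate HFrD. The ages of the dams were not given in the labels used here. The labels number the KPF dams 1 to 3 and the WPF dams 2 to 4. The comparison asks how the loss of hepatocyte ChREBP under HFrD changes liver RNA, and KPF was always set against WPF.

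Chaperones keep other proteins folded. HSP70 binds unfolded stretches of a client with the help of J proteins such as DNAJB1, is recharged by exchange factors such as HSPH1, and can pass clients on to HSP90. Small heat shock proteins hold unfolding clients without using ATP, and HSPD1 with its lid HSPE1 encloses proteins inside mitochondria. When unfolded protein accumulates, the heat shock factor HSF1 is released from chaperones, binds repeats of GAA and TTC in the promoters of these genes and raises their transcription. Many of them are also expressed without stress.

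Whole-gene reads of *Mlxipl*, which include exons outside the deleted one, were 182, 709 and 860 CPM (read counts relative to the scaled library total) in KPF replicates 1, 2 and 3, and 974, 1280 and 891 in WPF replicates 2, 3 and 4. All KPF libraries were below all WPF libraries, as in 8.15% of all 10866 tested genes. The fitted log2 fold change of -0.84 (SE 0.53) had an adjusted p of 0.584. Without KPF replicate 1, the lowest library, it was -0.42, and with any other library left out it lay between -1.23 and -0.68. Total counted reads were between 10694496 and 14496630 per library. KPF replicate 2 stood apart: the summed level of 8 striated muscle markers was 3480 CPM there and between 7.12 and 30.7 CPM in the other 5 libraries. Of the 2 cardiac genes in that list, *Myh6* was at or below 0.237 CPM in all 6 libraries, and *Tnnt2* was at 24.8 CPM in KPF replicate 1, most of that library's 30.7 CPM, and between 0.712 and 3.05 CPM elsewhere. The 10 hepatocyte markers were abundant in every library of these livers, with sums of 86700 to 114000 CPM in KPF and 113000 to 186000 CPM in WPF. A gene was called where it changed 1.5-fold or more with an edgeR p below 0.05 before adjustment. Of all tested genes 5.83% were called higher and 3.98% lower, and these shares stand beside every count of calls below. Of the hepatocyte markers 0 were called higher and 1 lower, *Apoa2* (log2 fold change -0.79, adjusted p = 0.453), and 3 of 10 had a log2 fold change above 0. The 8 stellate cell and fibroblast markers were 366, 682 and 172 CPM in KPF and 108, 135 and 127 CPM in WPF, 4 of them called higher in KPF. The called genes were *Des*, *Col1a1*, *Col3a1* and *Reln*. *Des*, desmin, is also a striated muscle gene and made up 493 of the 682 CPM in KPF replicate 2, while *Col3a1*, a fibrillar collagen, was at 75.2, 67.6 and 43.0 CPM in KPF and between 18.5 and 25.2 CPM in WPF. The 2 tested adipocyte markers of 7 listed were both called higher, the list summing to 45.3, 61.3 and 10.8 CPM in KPF and to 12.7, 9.18 and 6.53 CPM in WPF. Of the 8 Kupffer cell, 8 sinusoidal endothelial, 5 erythroid and 2 lymphocyte markers tested, 0, 1, 0 and 0 were called higher and 0 lower. In whole liver, fewer cells of a type and less RNA per cell cannot be told apart.

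Promoter stretches are shown first for the 2 inducible HSP70 copies, because they are nearly the same gene and their reads are hard to tell apart. Sequences are from RefSeq on GRCm38.p6, 5′ to 3′ on the gene's strand, ending at the base before the start site. The Hspa1a stretch is chr17:34972157-34972406 (minus strand) and the Hspa1b stretch is chr17:34959239-34959488 (minus strand), and neither overlaps an annotated exon. Capitals mark GAANNTTC, a pair of facing heat shock repeats.
Hspa1a: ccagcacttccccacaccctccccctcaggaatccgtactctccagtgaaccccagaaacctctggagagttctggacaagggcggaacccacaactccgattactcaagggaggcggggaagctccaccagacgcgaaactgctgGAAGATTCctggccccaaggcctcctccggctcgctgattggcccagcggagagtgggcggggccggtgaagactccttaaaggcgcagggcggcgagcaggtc
Hspa1b: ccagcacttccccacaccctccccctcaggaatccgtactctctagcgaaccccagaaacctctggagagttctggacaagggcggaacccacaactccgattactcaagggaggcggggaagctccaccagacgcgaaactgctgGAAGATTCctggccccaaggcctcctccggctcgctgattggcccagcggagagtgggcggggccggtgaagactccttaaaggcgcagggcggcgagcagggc
The copies matched at 247 of 250 bases. The 3 differences, written as the Hspa1a base, the position from 1 at the first printed base and the Hspa1b base, were C44T, T47C and T249G.

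The next stretches are shown because they hold the heat shock repeats of genes that behaved differently below: *Hspe1* with *Hspd1* was steady, and *Hspb1* and *Hsph1* varied. Capitals mark the pairs GAANNTTC and TTCNNGAA and their triple, in which GAA, TTC and GAA follow each other with NN between them, all searched on both strands. A triple contains both pairs. The Hspe1 stretch, chr1:55088053-55088082 (plus strand), runs from base -95 to base -66 before the *Hspe1* start, on the opposite strand to *Hspd1*. Of the 2 RefSeq start sites of *Hspd1*, it lies upstream of 1 and inside the transcribed stretch of the other, whose own window held 0 pairs. All of its 30 bases are inside an annotated exon of an *Hspd1* transcript. The Hspb1 stretch is chr5:135887789-135887838 (plus strand), upstream of the start and outside annotated exons. The Hsph1 stretch, chr5:149636279-149636308 (minus strand), lies after the start, in annotated exon.
Hspe1: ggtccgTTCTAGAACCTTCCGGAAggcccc
Hspb1: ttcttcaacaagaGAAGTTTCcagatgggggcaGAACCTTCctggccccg
Hsph1: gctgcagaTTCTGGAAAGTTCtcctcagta
The Hspe1 stretch held 2 overlapping triples, the Hsph1 stretch 1 triple, and the Hspb1 stretch 2 separate pairs. Of all 32851 promoter windows of 300 bases in the RefSeq table, 15.1% held a pair and 0.603% a triple. Neither window of *Dnajb1* held a pair. These letters are a description of the windows.

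Per exonic length of the gene, the constitutive chaperones were the most abundant. As the mean over the 6 libraries of the deposited FPKM, which are read counts divided by transcript length and library total, the levels were 180 for *Hspa8*, 101 for *Hsp90ab1*, 56.3 for *Hspd1*, 49.2 for *Hspe1*, 25.9 for *Hsp90aa1*, 8.41 for *Hspb1*, 5.46 for *Dnajb1*, 3.25 for *Hsph1*, 0.797 for *Hspa1b* and 0.105 for *Hspa1a*. Each of the first 4 genes exceeded the next gene of this order within all 6 libraries. *Hsp90aa1* exceeded *Hspb1* in 5 libraries, *Hspb1* exceeded *Dnajb1* in 3, and *Dnajb1* exceeded *Hsph1* in 5, so these neighbours were not separated beyond their spread. Only the neighbours *Hsp90ab1* and *Hspd1* had ranges over the libraries that did not overlap.

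**Figure D1:**
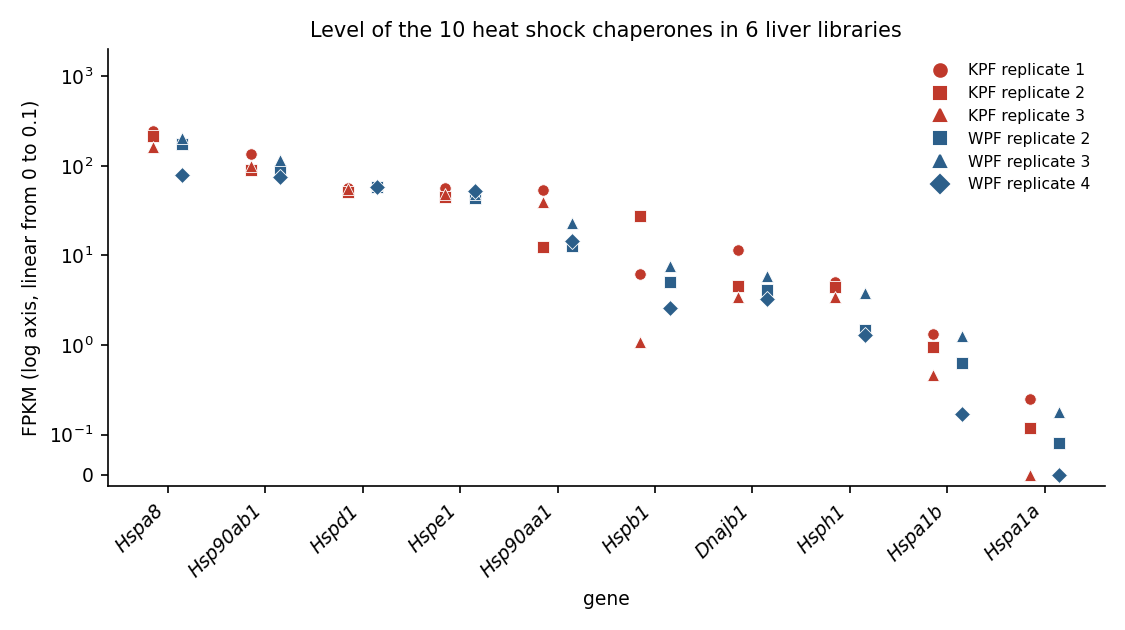
Deposited FPKM (y axis, log scale, linear from 0 to 0.1) of the 10 heat shock chaperones (x axis, ordered by mean), with 1 point per library, KPF in red on the left and WPF in blue on the right. *Hspd1* and *Hspe1* points lie on top of each other, while *Hspb1* runs from 1.09 in KPF replicate 3 to 27.9 in KPF replicate 2.

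Of the 10 chaperones, 8 had a mean FPKM of at least 1 and were tested with edgeR. *Hsp90aa1* and *Hsph1* were called higher in KPF and 0 were called lower. That is 25.0% of the tested members called higher. Of all 10866 tested genes 5.83% were called higher, 3.98% lower and 9.81% in either direction. With so few members, each call rests on its own values. None passed an adjusted p of 0.05 in edgeR, where 0 of all tested genes did (0%), although 1176 (10.8%) were below 0.05 before adjustment and DESeq2 on the same counts gave 156 genes. In DESeq2 the adjusted p was 0.251 for *Hsph1* and 0.267 for *Hsp90aa1*. The log2 fold change was above 0 in 7 of 8 members and in 51.4% of all tested genes, and its median was 0.58 in the members and 0.02 in all genes. The groups did not overlap in 1 member, *Hsph1*, beside 15.7% of all genes, 7.55% with KPF above WPF and 8.15% below. Over all tested genes 634 were called higher and 432 lower, so 59.5% of the calls were higher. Scaling by library totals instead turned that share to 33.7% and moved the median of all genes to -0.12, but the median of the members still lay 0.62 above it, beside 0.57 with the main scaling.

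*Hspa8* (ENSMUSG00000015656, chr9:40712280-40721383 on GRCm39), the HSP70 of unstressed cells, was the most abundant member on average. Its level was 1090, 937 and 787 CPM in KPF replicates 1, 2 and 3, and 862, 818 and 289 CPM in WPF replicates 2, 3 and 4. WPF replicate 4 was far below the rest, and the other 5 libraries formed a narrow range in which the groups overlapped. The log2 fold change was 0.52 (SE 0.43, adjusted p = 0.679), and it was 0.15 without WPF replicate 4. Of the summed FPKM of the 10 chaperones, *Hspa8* made up between 39.3% and 47.5% in 5 libraries and 27.3% in WPF replicate 4. By the GENCODE M21 transcripts, 56% of the 150-base windows of *Hspa8* also occur in another gene, most often the gene model Gm26825, so part of its reads may have been split or dropped in counting.

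The inducible copies *Hspa1a* (ENSMUSG00000091971, chr17:35188166-35191132) and *Hspa1b* (ENSMUSG00000090877, chr17:35175412-35178214), which strong stress raises, were hardly expressed. *Hspa1a* had 8, 4 and 0 reads in the KPF libraries and 3, 7 and 0 reads in the WPF libraries. *Hspa1b* had 40, 30 and 15 reads in KPF and 23, 46 and 7 reads in WPF, or 3.86, 2.69 and 1.46 CPM against 2.01, 3.28 and 0.415 CPM. The groups overlapped for both genes, and the lowest *Hspa1b* level was again in WPF replicate 4. Both stayed under the expression filter and were not tested. In the fit without a filter the log2 fold change was 0.51 (SE 1.21) for *Hspa1a* and 0.43 (SE 0.61) for *Hspa1b*, and with the reads of both copies summed it was 0.51 with an adjusted p of 0.819. Of the windows of *Hspa1a*, 46% occur elsewhere, 1074 of them in *Hspa1b*, so the split between the copies is uncertain. Per length, the summed copies reached between 0.00221 and 0.00703 of the level of *Hspa8*. The log2 of that ratio differed by 0.18 between the groups (two-sided exact permutation p = 0.8), and the smallest p that 3 against 3 allows is 0.1.

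*Hsph1* (ENSMUSG00000029657, chr5:149537752-149559841), the HSP110-type exchange factor that recharges HSP70, was the only tested member whose groups did not overlap. Its level was 37.6, 32.6 and 28.2 CPM in KPF (32.8 ± 4.66, SD, n = 3) and 12.2, 26.0 and 8.13 CPM in WPF (15.4 ± 9.36, SD, n = 3). The 3 KPF libraries lay close together and above every WPF library, while WPF replicate 3 came near them. The log2 fold change was 1.09 (SE 0.41, 2.13-fold), and edgeR gave an adjusted p of 0.43 where the unadjusted value was 0.0297. The two-sided exact permutation p was 0.1, the smallest possible. The call was lost when KPF replicate 1, KPF replicate 2, WPF replicate 2 or WPF replicate 4 was left out (log2 fold changes of 0.98, 1.08, 0.95 and 0.77), and without WPF replicate 3 the change was 1.69. No 150-base window of *Hsph1* was shared with another gene.

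*Dnajb1* (ENSMUSG00000005483, chr8:84334822-84339282), the main heat-inducible J protein of the cytosol, was high in a single library. The levels were 38.2, 14.9 and 12.3 CPM in KPF and 15, 17.6 and 9.02 CPM in WPF. Without KPF replicate 1 the groups were close, and the log2 fold change went from 0.65 (SE 0.46, adjusted p = 0.627) to -0.028.

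The HSP90 genes differed from each other in how they varied. *Hsp90aa1* (ENSMUSG00000021270, chr12:110657039-110669162), the inducible form, was at 217, 49.6 and 175 CPM in KPF (147 ± 87.3, SD, n = 3) and at 56.7, 83.9 and 49.0 CPM in WPF (63.2 ± 18.3, SD, n = 3). KPF replicates 1 and 3 were well above all WPF libraries, and KPF replicate 2 was as low as WPF replicate 4, so the groups overlapped. On the log2 scale the change was 1.22 (SE 0.52, 2.33-fold), and edgeR gave an adjusted p of 0.457 where the unadjusted value was 0.0475. The two-sided exact permutation p was 0.3. The call was lost without KPF replicate 1, KPF replicate 3 or any 1 of the WPF libraries, with log2 fold changes between 0.83 and 1.48, and without KPF replicate 2 the change was 1.63. It was also lost with library totals as scaling and in limma on log2(FPKM + 1).

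*Hsp90ab1* (ENSMUSG00000023944, chr17:45878701-45884197), the constitutive form, ranged only from 275 to 422 CPM in KPF and from 194 to 325 CPM in WPF. Its highest value was again in KPF replicate 1 and its lowest in WPF replicate 4. Its log2 fold change was 0.33 (SE 0.30, adjusted p = 0.702). Within a library, the ratio of *Hsp90aa1* to *Hsp90ab1* per length does not depend on scaling. It was 0.393, 0.137 and 0.397 in KPF and 0.143, 0.197 and 0.192 in WPF. The inducible form thus made up more of the pair in KPF replicates 1 and 3 and least in KPF replicate 2. The log2 ratio differed by 0.66 between the groups (two-sided exact permutation p = 0.4, 0.6 after Benjamini-Hochberg adjustment over 3 ratios). It was 0.41 without KPF replicate 1, 0.40 without KPF replicate 3 and 1.17 without KPF replicate 2. Of the windows of *Hsp90aa1*, 36.2% occur in another gene, most often Gm12346, and none of those of *Hsp90ab1* do.

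*Hspb1* (ENSMUSG00000004951, chr5:135916773-135918417) encodes HSP27, known in mouse as HSP25, a small heat shock protein that also binds actin. It varied more within the groups than any other tested member, at 6.56, 29.3 and 1.27 CPM in KPF and 5.87, 7.40 and 2.31 CPM in WPF. KPF held both the highest and the lowest library, 23.2-fold apart. The pooled SD of its log2 level within groups was 1.66, at percentile 98.1 of all tested genes. Its log2 fold change was 1.26 (SE 0.95, adjusted p = 0.651), turned to -0.41 without KPF replicate 2, and was 1.79, past the threshold of a call, without KPF replicate 3. Of its windows, 36.6% are shared with another gene, all with Hsp25-ps1.

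The other small heat shock proteins showed the same library. Of 9 genes, 6 passed the filter and 3 were called higher in KPF: *Cryab*, the alphaB-crystallin, *Hspb6* and *Hspb7*, which are known to be abundant in striated muscle. *Cryab* was at 174 CPM in KPF replicate 2 and between 2.26 and 6.66 CPM in the other 5 libraries. *Hspb6* was at 118 CPM there and between 9.68 and 14.1 CPM elsewhere, and *Hspb7* at 67.6 CPM against 0.0974 to 4.54 CPM. KPF replicate 2 is the library with the striated muscle RNA. *Acta1*, skeletal actin, was at 780 CPM there and at most 3.42 CPM elsewhere, and *Ckm*, the muscle creatine kinase, at 524 CPM and at most 1.07 CPM. All 6 tested muscle markers of 8 listed were called higher in KPF. *Cryab* also lost its call without WPF replicate 4, and *Hspb6* without any 1 of the WPF libraries. Without KPF replicate 2 only *Hspb7* remained called among the small heat shock proteins, with a log2 fold change of 3.08 (SE 1.22), and the median of the list went from 3.25 to 0.23. *Hspb8*, the small heat shock protein with the highest CPM in every library but KPF replicate 2, was at 91.6, 110 and 119 CPM in KPF and 87.7, 99.5 and 92.0 CPM in WPF. How much of the *Hspb1* level in KPF replicate 2 belongs to the muscle RNA was not tested.

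**Figure D2:**
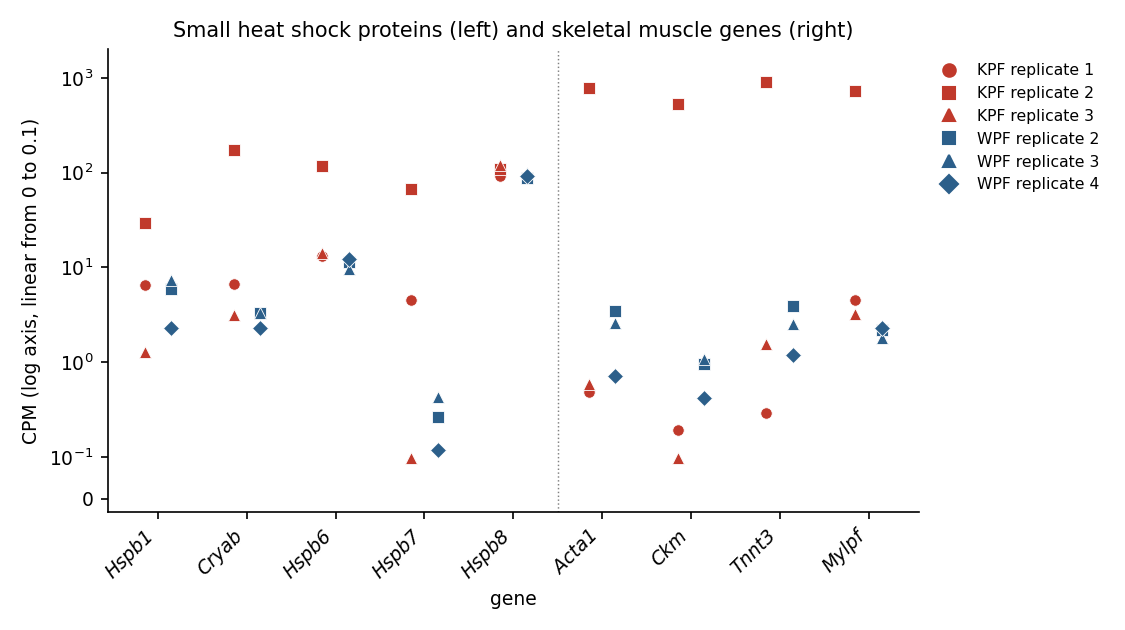
CPM (y axis, log scale, linear from 0 to 0.1) of 5 small heat shock proteins and 4 skeletal muscle genes (x axis), with 1 point per library, KPF in red and WPF in blue. KPF replicate 2 is the top point for *Hspb1*, *Cryab*, *Hspb6*, *Hspb7* and the muscle genes, but not for *Hspb8*, where KPF replicate 3 reaches 119 CPM.

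The mitochondrial chaperonin pair hardly moved. *Hspd1* (ENSMUSG00000025980, chr1:55116994-55127402), HSP60, was at 154, 136 and 162 CPM in KPF and 173, 151 and 131 CPM in WPF. Its lid *Hspe1* (ENSMUSG00000073676, chr1:55127291-55130466), HSP10, was at 85.1, 68.3 and 81.0 CPM in KPF and 72.8, 67.4 and 66.9 CPM in WPF. No library stood out for either gene. The log2 fold change was -0.01 (SE 0.23, adjusted p = 0.989) for *Hspd1* and 0.18 (SE 0.20, adjusted p = 0.764) for *Hspe1*. The pooled SD within groups was 0.17 and 0.13 on the log2 scale, at percentiles 9.32 and 3.65 of all tested genes, whose median was 0.36. Per exonic length, *Hspe1* was between 0.754 and 0.994 of *Hspd1*. The exonic lengths of *Hspe1* and *Hspd1* were 1474 and 2642 bases, and their longest coding transcripts had 774 and 2423. Which of the pair is higher thus depends on the length used. The log2 ratio differed by 0.18 between the groups (two-sided exact permutation p = 0.3). The coordinates of the 2 genes overlap at their starts. By the same spread, *Hsph1*, also with a triple, was at percentile 80.8, *Dnajb1*, with no pair, at 86.0, and *Hspb1*, with separate pairs, at 98.1. Whether the heat shock repeats relate to the spread was not tested, and *Hspa8*, *Hsp90aa1* and *Hsp90ab1* had no promoter window.

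**Figure D3:**
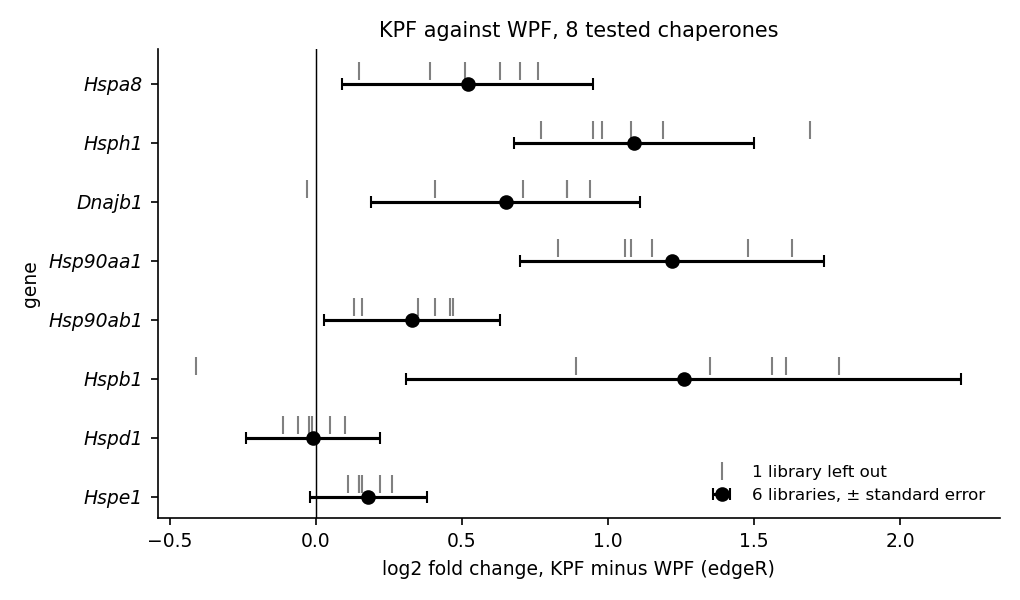
Log2 fold change, KPF minus WPF (x axis), of the 8 tested chaperones (y axis), as black points with the standard error from edgeR, and grey ticks for the fits with 1 library left out. *Hspd1* stays near 0, *Hspb1* has a tick at -0.41, and all ticks of *Hsph1* and *Hsp90aa1* lie above 0.5.

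Seen by library, the members shared a high and a low library and went apart in the others. By CPM, KPF replicate 1 held the highest level of 6 of 8 tested members and WPF replicate 4 the lowest of 7 of 8. The low end depends on the scaling. By FPKM, *Hsp90aa1* (12.37) and *Hspd1* (50.67) were lowest in KPF replicate 2 and *Hspe1* (43.4) in WPF replicate 2. WPF replicate 4 had 14.49, 57.68 and 52.74 for these genes. As the difference of a gene's log2 CPM from its own mean over the 6 libraries, the median over the members was 0.52 in KPF replicate 1, -0.10 in KPF replicate 2, 0.13 in KPF replicate 3, -0.00 in WPF replicate 2, 0.12 in WPF replicate 3 and -0.82 in WPF replicate 4. The same median over all tested genes was between -0.01 and 0.01 in every library. The scaling between libraries largely sets it near 0, so it gives no background for the members. How many of all tested genes were highest in KPF replicate 1 or lowest in WPF replicate 4 was not counted. All 8 members were above their mean in KPF replicate 1 and 0 were in WPF replicate 4. The 10 genes together took 0.199% of all counted reads in KPF replicate 1, 0.0872% in WPF replicate 4, and between 0.132% and 0.16% in the other 4 libraries. The medians of the 4 libraries between these ends did not separate by group, and single members went opposite ways there: *Hspb1* was at 2.39 and *Hsp90aa1* at -0.81 in KPF replicate 2, and at -1.98 and 1.01 in KPF replicate 3. Without KPF replicate 1 the median log2 fold change of the tested members was 0.28, and without WPF replicate 4 it was also 0.28.

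**Figure D4:**
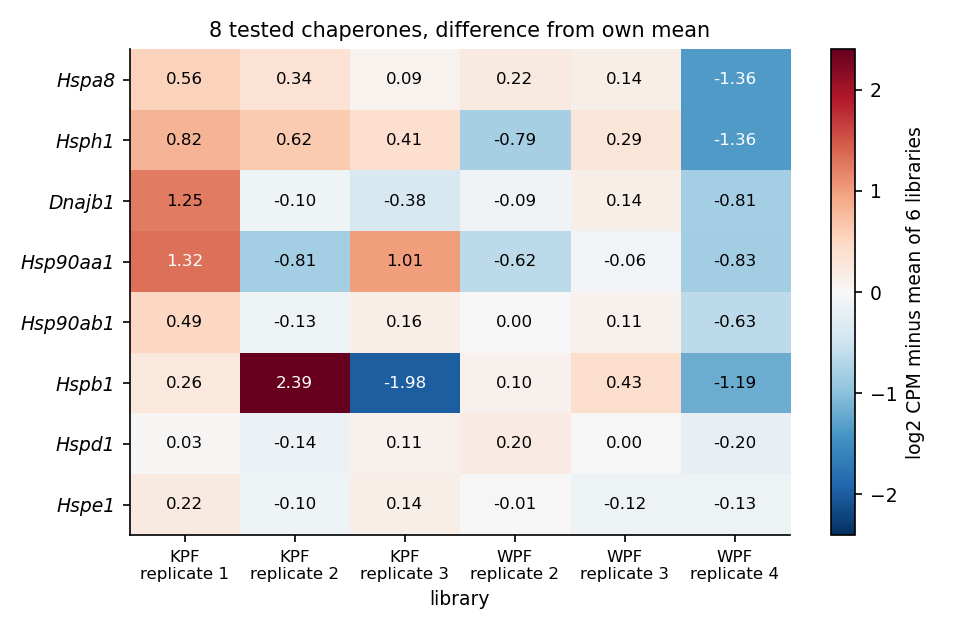
Difference of the log2 CPM from the gene's mean over 6 libraries (colour and printed value) for the 8 tested chaperones (rows) in each library (columns). The KPF replicate 1 column is above 0 throughout and the WPF replicate 4 column below 0 throughout, with -1.36 for *Hspa8* and *Hsph1*, while *Hspd1* and *Hspe1* stay within 0.22 of their mean.

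The genes whose standardised pattern over the 6 libraries was nearest to the mean pattern of the tested members were *Bud23*, *Stn1*, *Htra2*, *Ftsj3* and *Recql5*, with mean absolute differences of 0.08, 0.08, 0.12, 0.13 and 0.14 SD. *Ftsj3*, for example, was at 134, 69.1 and 79.3 CPM in KPF and 77.0, 76.7 and 40.9 CPM in WPF. Among the members *Hsp90ab1* was nearest, at 0.13 SD, and *Hspb1* farthest, at 0.95 SD. Each tested member is itself part of the mean pattern, which the other genes are not. Counting the gene itself, 4 tested genes were as near as *Hsp90ab1* or nearer. That count was 178 for *Hspa8*, 468 for *Hsph1*, 885 for *Hsp90aa1* and 3802 for *Hspb1*, so the pattern was not particular to the chaperones. All these differences are over the same 6 libraries that define the pattern.

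The regulators of the heat shock response were mostly level. Of 8 tested genes listed as regulators or feedback of HSF1, 1 was called higher, *Ddit3*, and 1 lower, *Sirt1*. The median log2 fold change was 0.09. Whether *Ddit3* followed HSF1 in these livers was not tested. *Hsf1* itself was at 38.8, 40.5 and 29.4 CPM in KPF and 36.2, 33.0 and 26.1 CPM in WPF, with a log2 fold change of 0.19 (SE 0.22, adjusted p = 0.768). *Sirt1*, a deacetylase that keeps HSF1 on DNA, was at 5.99, 9.14 and 9.83 CPM in KPF and 10.9, 14.4 and 15.5 CPM in WPF (log2 fold change -0.71, adjusted p = 0.438). Its groups did not overlap, KPF lying below WPF, as in 8.15% of all tested genes. *Ddit3*, the stress transcription factor CHOP, was at 164, 46.3 and 32.0 CPM in KPF and 25.7, 23.9 and 14.6 CPM in WPF, with KPF replicate 1 highest and WPF replicate 4 lowest, as for most of the chaperones (log2 fold change 1.92, adjusted p = 0.43). *Sirt1* lost its call without KPF replicate 1, WPF replicate 3 or WPF replicate 4 (-0.52, -0.67 and -0.61). *Ddit3* kept its call when any 1 library was left out, with 0.88 as the smallest change, without KPF replicate 1. *Hsbp1*, a binder of HSF1, had a log2 fold change of -0.24 (adjusted p = 0.712).

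The partners of HSP70 and HSP90 held few calls, beside 5.83% of all tested genes called higher and 3.98% called lower. In the HSP70 cycle 1 of 15 tested genes was called higher and 0 lower, with a median of 0.04. That gene was *Dnajb6*, a J protein that holds back aggregation, at 47.9, 52.6 and 29.3 CPM in KPF and 27.2, 21.6 and 30.8 CPM in WPF (log2 fold change 0.70, adjusted p = 0.438), and its call was lost without KPF replicate 1 or 2 or WPF replicate 2 or 3 (0.53 to 0.72). *Dnajb4* and *Dnajb5*, which are close relatives of *Dnajb1*, had log2 fold changes of 0.34 and 0.89 with adjusted p of 0.568 and 0.515. Of 15 cochaperones of HSP90, 0 were called higher and 1 lower, with a median of -0.03. *Stip1*, which links HSP70 to HSP90, was at 87.1, 52.3 and 56.1 CPM in KPF and 39.3, 52.1 and 28.2 CPM in WPF, and just missed the call (log2 fold change 0.71, adjusted p = 0.464). Its groups did not overlap, KPF lying above WPF, as in 7.55% of all tested genes. *Tomm34*, a cochaperone of mitochondrial import, was called lower, at 5.41, 10.4 and 12.4 CPM in KPF and 14.4, 15.5 and 18.5 CPM in WPF (log2 fold change -0.78, adjusted p = 0.453). That call was lost when any library but KPF replicate 3 was left out, with changes between -0.87 and -0.50. *Ahsa2*, an activator of the HSP90 ATPase, had a log2 fold change of 0.74 (adjusted p = 0.501).

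The other folding machines of cytosol and mitochondria showed few calls, beside 5.83% of all tested genes called higher and 3.98% called lower. Of 14 subunits of the chaperonin TRiC and of prefoldin, which fold actin and tubulin, 0 were called in either direction and the median was -0.07. By p, *Pfdn2*, *Pfdn6* and *Cct4* came nearest to a call, with log2 fold changes of 0.45, 0.39 and -0.37. Of 14 mitochondrial chaperones and proteases other than *Hspd1* and *Hspe1*, 0 were called higher and 1 lower, with a median of -0.35. The called gene was *Grpel1*, the exchange factor of mitochondrial HSP70, at 11.3, 8.43 and 9.44 CPM in KPF and 17.2, 11.3 and 16.6 CPM in WPF (log2 fold change -0.63, adjusted p = 0.445), and it lost the call without KPF replicate 2 or 3 or WPF replicate 2 or 4 (-0.61 to -0.52). *Dnaja3*, its J protein, had a log2 fold change of -0.47 (adjusted p = 0.448) and *Grpel2* of -0.58 (adjusted p = 0.491), and neither was called.

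Chaperones of the endoplasmic reticulum (ER) shared the high library of the cytosolic members, but not their low library. Of 16 tested genes, 15 had a log2 fold change above 0, 3 were called higher and 0 lower, with a median of 0.79. Of all tested genes 51.4% were above 0 and 5.83% were called higher. Their summed level was 8030, 1800 and 4410 CPM in KPF and 3360, 3080 and 2600 CPM in WPF, so KPF replicate 1 was highest and KPF replicate 2 lowest. *Hspa5*, the HSP70 of the ER, was at 1000, 159 and 525 CPM in KPF and 347, 384 and 225 CPM in WPF. *Creld2* reached 630 CPM in KPF replicate 1 and lay between 29.4 and 93.7 CPM in the others (log2 fold change 2.82, adjusted p = 0.43). *Sdf2l1*, a cofactor of *Hspa5*, reached 151 CPM in KPF replicate 1 (log2 fold change 2.08, adjusted p = 0.43). *Serpinh1*, HSP47, which folds collagen and is a marker of matrix-forming cells, was at 27.5, 21.2 and 12.1 CPM in KPF and 7.53, 13.1 and 8.49 CPM in WPF (log2 fold change 1.06, adjusted p = 0.43). Of the 8 stellate cell and fibroblast markers given above, 7 also had a log2 fold change above 0. The part of these cells in the level of *Serpinh1* was not tested. Without KPF replicate 1, 0 of the 16 ER genes were called and the median was 0.14. Without WPF replicate 4 also 0 were called, at a median of 0.68, and without WPF replicate 2 or 3 there was 1 call each. Without KPF replicate 2, 12 were called higher and the median was 1.10.

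**Figure D5:**
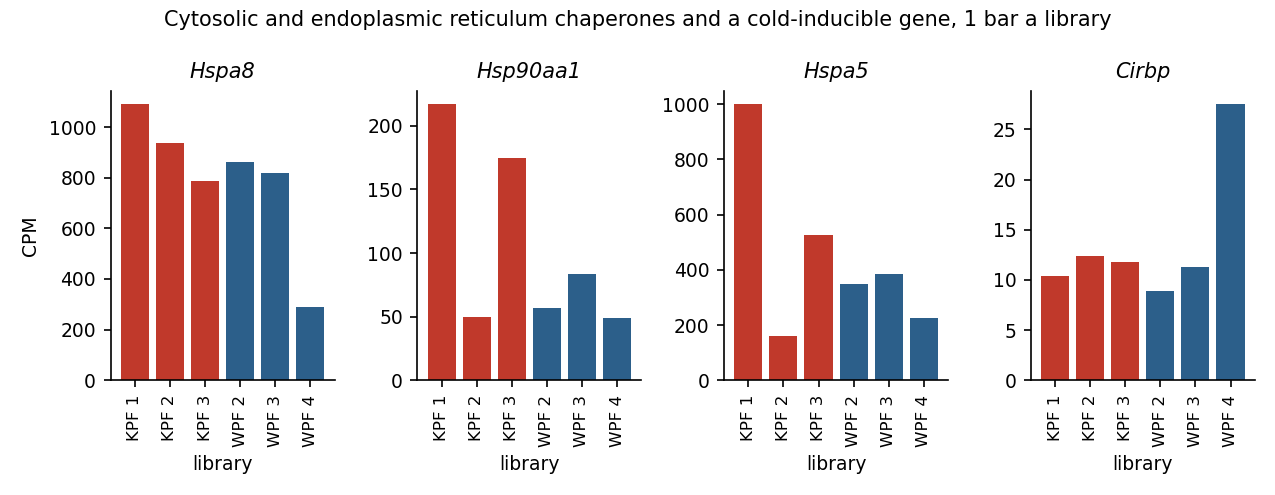
CPM (y axis, from 0, own scale per panel) of *Hspa8*, *Hsp90aa1*, the ER chaperone *Hspa5* and the cold-inducible gene *Cirbp* in each library (x axis), KPF in red and WPF in blue. KPF replicate 1 has the tallest bar for the 3 chaperones, and WPF replicate 4 has the shortest bar for *Hspa8* (289 CPM) and the tallest for *Cirbp* (27.5 CPM).

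The RNA-binding proteins that respond to temperature were all highest in WPF replicate 4, the library where 7 of 8 tested chaperones were lowest by CPM. They were lowest in different libraries: *Rbm3* in KPF replicate 1 (9.56 CPM), *Cirbp* in WPF replicate 2 (8.93 CPM) and *Srsf5* in WPF replicate 3 (130 CPM). *Cirbp*, which cooling induces, was at 10.4, 12.4 and 11.8 CPM in KPF and 8.93, 11.3 and 27.5 CPM in WPF, so the library with the least *Hspa8* had the most *Cirbp*. *Srsf5* and *Rbm3* were also highest in WPF replicate 4, at 313 CPM and 19.6 CPM, and none of the 3 passed the test (log2 fold changes of -0.47, -0.39 and -0.41 for *Cirbp*, *Srsf5* and *Rbm3*). Immediate early genes, which rise within minutes of many stimuli, summed to 493, 250 and 202 CPM in KPF and 230, 194 and 325 CPM in WPF. Most of the excess in KPF replicate 1 was *Egr1*, at 251 CPM there and between 12.5 and 60.6 CPM elsewhere. Of 13 tested genes of that list 1 was called higher, *Btg2* (log2 fold change 0.96, adjusted p = 0.43), and 1 lower, *Myc* (-0.86, adjusted p = 0.43), and *Ier2* had 0.56 (adjusted p = 0.597). *Btg2* lost its call without KPF replicate 2 or 3 or WPF replicate 2 or 3, and *Myc* without KPF replicate 2 or WPF replicate 2 or 4. The clock genes split the libraries in another way. *Arntl* was at 2.41, 1.08 and 1.48 CPM in KPF replicates 1 and 2 and WPF replicate 4, and between 21.2 and 31.3 CPM in the other 3, and none of 14 tested clock genes was called. The low-*Arntl* libraries include both the one with the highest and the one with the lowest chaperone levels, KPF replicate 1 and WPF replicate 4. *Clock* (15.3 and 16.6 CPM), *Npas2* (0.869 and 0.415 CPM) and *Per1* (69.2 and 59.1 CPM) were also near each other in these libraries. Other clock genes differed between them: *Dbp* was at 38.8 and 288 CPM, and *Nr1d1* at 31.4 and 151 CPM. Whether any of these moved the heat shock chaperones was not tested.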

How the data were processed

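Liver poly(A) RNA of 3 KPF and 3 WPF dams was sequenced as paired ends. The labels do not state more than a number for each dam, so p-values measure the spread between these libraries. The table the authors deposited holds, for each gene, raw counts of reads beside FPKM, and the FPKM equal the count per exonic length and total within 0.0051 for 100% of values. The submitters' processing notes name cutadapt 1.9.1, HISAT2 2.2.1, HTSeq 0.6.1, DESeq2 and GRCm39, with no order. Symbols were taken from GENCODE M21 (52073 of 56691 gene IDs matched). RefSeq promoter windows were at hand for 7 of the 10 members, all but *Hspa8*, *Hsp90aa1* and *Hsp90ab1*.

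Counts were tested with edgeR 4.0.16 (R 4.3.3, TMM, quasi-likelihood) in the 10866 genes whose FPKM averaged 1 or more, with Benjamini-Hochberg adjustment. Member levels are CPM of that fit. DESeq2 1.42.0, limma 3.58.1, other scalings and filters, and left-out libraries were alternatives, and the edgeR, DESeq2 and limma fits were tested on simulated data. Lists are described by counts and medians, with no set test, and leaving out libraries for the lists was added after their values were seen. Named genes are the 10 members, up to 3 genes of the smallest p in each chaperone or companion list, the 5 genes nearest in pattern, and *Mlxipl*. *Hsf1*, *Hspa5*, *Hspb8*, *Egr1*, *Arntl*, *Dbp*, *Nr1d1*, *Acta1*, *Ckm*, *Myh6*, *Tnnt2*, *Apoa2*, *Des*, *Col1a1*, *Col3a1* and *Reln* are named outside that rule, after their values were seen. The members and lists were chosen with earlier results of these data known. Same-numbered libraries of the 2 groups were treated as unpaired, since the labels do not pair them. Their deviations correlated at 0.0589 for replicate 2 and -0.0368 for replicate 3, which cannot decide whether the dams were paired.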

Additional observations from a re-analysis of the deposited data

How the results depend on the processing

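Genes with an adjusted p under 0.05 numbered 0 in the main fit, 286 without a filter, 156 in DESeq2 and from 0 to 5 with 1 library left out. Genes called higher numbered 634, and 371 with library totals, 1576 without a filter, 255 at a mean FPKM of at least 5, 237 and 288 in limma with a pseudocount of 1 and 0.1, and 324 to 910 with 1 library left out. Genes called lower numbered 432, and 729, 910 and 205 with the first 3 of these settings, 540 and 700 in limma, and 246 to 709 with 1 library left out. The share of calls that were higher was 30.5% and 29.1% in limma. Of the members 2 were called, and 1 with library totals, 1 in limma with either pseudocount, and 0 to 2 with 1 library left out. At a mean FPKM of at least 5, 0 were called: *Hsph1* falls out, and *Hsp90aa1* had an edgeR p of 0.0541 before adjustment. The cause of these changes was not tested beyond the fewer or more genes and libraries that each setting holds.

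The replicate numbers 2 and 3 occur in both groups, and the labels do not say whether they pair the libraries. With the replicate block 0 members were called, 680 genes were called higher and 551 lower, and the median log2 fold change of the members was 0.06, against 0.58 in the main fit and 0.28 to 0.78 with 1 library left out. The block sets only the same-numbered libraries against each other, so KPF replicate 1 and WPF replicate 4 add nothing to it. *Dnajb1* then had -0.26 and *Hsp90ab1* -0.04. With 1 library left out, *Hspd1* ranged from -0.11 to 0.10, above 0 without KPF replicate 2 (0.05) or WPF replicate 2 (0.10), *Dnajb1* from -0.028 without KPF replicate 1 to 0.94, and *Hspb1* from -0.41 without KPF replicate 2 to 1.79 without KPF replicate 3. The log2 ratio of *Hspa1a* plus *Hspa1b* to *Hspa8*, 0.18 with all libraries, was between -0.24 and 0.59 with 1 library left out, with -0.08 without KPF replicate 1 and -0.24 without WPF replicate 4, and -0.50 over the same-numbered libraries (replicate block). Depth limits the inducible HSP70 copies most: *Hspa1a* had no more than 8 reads in any library.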
